A study of Mus musculus with 8 samples.

Results

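Cells positive for a Cdx2-GFP reporter, collected by sorting from 2iJ+B-A culture on day 2, were compared with unsorted mouse embryonic stem cells (mESCs) from the same medium and day. The pair was taken from the labels and comprised 2 of the 8 RNA-seq libraries in the series, 1 on each side. 2iJ+B-A is serum-containing medium with CHIR99021 and PD0325901 (inhibitors of GSK3 and MEK, together called 2i), a JAK inhibitor, BMP4 and Alk5i, an inhibitor of the type I receptor kinases through which TGF-beta, Activin and Nodal signal. The sorted cells came from the line CDX2-GFP, whereas the unsorted cells came from the line R1, so that line and sorting changed together and cannot be told apart. Neither the construction of the reporter nor the sort gate is described in the sources used here, and no GFP-negative fraction is among the libraries. R1 cells in 2iJ+B-A on days 5 and 11, in 2i and in 2i with the JAK inhibitor (2iJ) on day 5, and mesoderm progenitors made from R1 embryoid bodies on days 3 and 4 were used for reference.

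Cdx2 encodes a homeodomain transcription factor that is needed to maintain the trophectoderm, the outer epithelium of the blastocyst from which the placenta derives. In the embryo, TEAD4 with its Hippo-regulated coactivator YAP, together with GATA3, promotes the trophectoderm programme in outer cells, and CDX2 and OCT4 (encoded by Pou5f1) repress each other. Cdx2 is also expressed in the posterior primitive streak, so that Cdx2 alone does not define a trophectoderm cell.

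Gene counts totalled 19810855 in the sorted library and 24532587 in the unsorted library. Expression is given as CPM, which scales the gene counts of each library to the same total and not to gene length, ratios are sorted over unsorted on day 2, and intervals in square brackets are 95% intervals that cover counting error only, since no replicates were available. In the sorted library 29.7% of read pairs did not align, and 27.8% of the pairs with a unique position hit no annotated exon, against at most 3.85% and 13.2% in the other 7 libraries. How far this contributes to the differences below was not tested. Since the libraries are bulk RNA, fewer cells of a type and less RNA per cell cannot be told apart.

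The reporter gene itself was first examined. Cdx2 (chr5:148112381-148118846, minus strand, NCBIM37) was at 235 CPM in the sorted cells and at 15 CPM in the unsorted cells, a 15.6-fold difference (log2 ratio 3.97 [3.81, 4.12]). In the other R1 libraries it was at 30.1 and 17.5 CPM in 2iJ+B-A on days 5 and 11, 3.16 CPM in 2i, 4.13 CPM in 2iJ, and 40.2 and 17.2 CPM in the mesoderm progenitors on days 3 and 4. The sorted library was thus above all 7 others. Because cells were collected through a Cdx2 reporter, this value checks the label and is not a separate finding. Cdcp1, a transmembrane glycoprotein used as a trophoblast surface marker, was at 42.6 CPM in the sorted cells and between 0.533 and 4.99 CPM elsewhere (13.2-fold over day 2). Sox2, the partner of OCT4 in pluripotent cells, was at 110 CPM against 597 CPM on day 2 (5.40-fold lower), and at 514 and 560 CPM on days 5 and 11.

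The proximal promoters of Cdx2 and of the 3 trophectoderm-list genes with the highest level among those at least 4-fold higher are shown, since these genes were higher together. The windows run from 250 bases before to 50 bases after the RefSeq start (GRCm38.p6, a later build than the counts). Cdx2 lies at chr5:147307200-147307499 (minus), Fabp3 at chr4:130308488-130308787 (plus), Krt8 at chr15:102004293-102004592 (minus) and Krt18 at chr15:102027966-102028265 (plus). Capitals mark a GATA match.
Cdx2: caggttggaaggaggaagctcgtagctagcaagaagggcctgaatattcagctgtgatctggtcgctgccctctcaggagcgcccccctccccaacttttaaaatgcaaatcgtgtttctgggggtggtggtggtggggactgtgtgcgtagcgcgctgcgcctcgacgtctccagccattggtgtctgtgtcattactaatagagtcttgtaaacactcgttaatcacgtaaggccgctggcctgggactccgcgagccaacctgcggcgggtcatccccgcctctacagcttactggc
Fabp3: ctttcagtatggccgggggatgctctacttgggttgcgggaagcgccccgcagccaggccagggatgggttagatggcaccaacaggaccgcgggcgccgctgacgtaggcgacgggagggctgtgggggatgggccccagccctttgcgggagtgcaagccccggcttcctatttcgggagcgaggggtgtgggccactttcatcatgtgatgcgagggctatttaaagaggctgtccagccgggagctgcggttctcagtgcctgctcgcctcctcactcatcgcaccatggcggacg
Krt8: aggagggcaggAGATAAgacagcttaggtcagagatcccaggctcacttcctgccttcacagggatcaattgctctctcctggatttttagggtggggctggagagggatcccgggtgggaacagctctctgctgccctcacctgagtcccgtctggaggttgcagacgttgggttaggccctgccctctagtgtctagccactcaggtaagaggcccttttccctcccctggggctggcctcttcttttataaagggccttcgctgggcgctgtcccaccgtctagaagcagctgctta
Krt18: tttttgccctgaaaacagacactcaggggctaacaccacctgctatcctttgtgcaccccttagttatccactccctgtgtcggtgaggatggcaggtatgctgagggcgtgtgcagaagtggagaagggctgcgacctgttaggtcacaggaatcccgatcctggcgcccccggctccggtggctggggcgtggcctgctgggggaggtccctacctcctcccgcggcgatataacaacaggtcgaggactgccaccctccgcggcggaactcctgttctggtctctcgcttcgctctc
Both strands were searched for the letters GGAATG of TEAD factors, for the letters AGATAA of GATA factors and for the letters TTTATNG of CDX factors. Of the 16 trophectoderm-list genes at least 4-fold higher, 13 had a window. GGAATG was present in 1 of them (Cldn7) and in 14.6% of 27025 promoters, AGATAA in 1 (Krt8) and in 11.4%, and the CDX letters in 0 and in 11.3%.

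**Figure D1:**
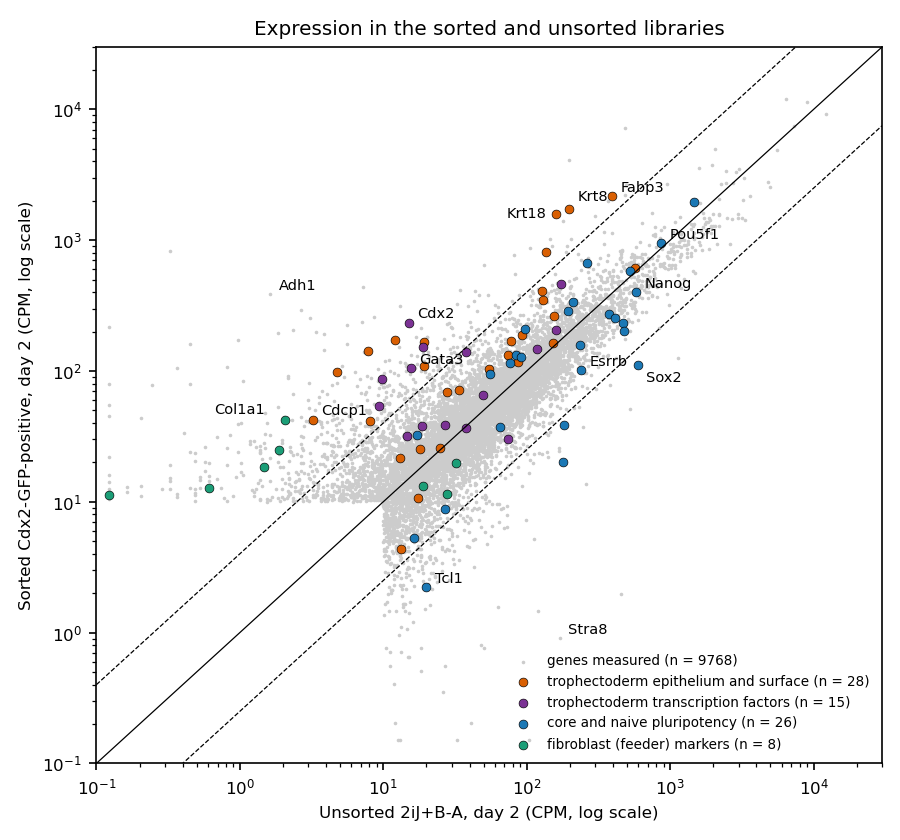
Each point is a gene with at least 10 CPM in 1 of the libraries, placed by its CPM in the unsorted (x) and sorted (y) day 2 library on log scales. The solid line marks equal levels and the dashed lines a 4-fold difference, and values below 3 counts are drawn at that floor. Krt8, Krt18, Fabp3 and Cdx2 lie above the upper line, Sox2 and Tcl1 lie below the lower line, and Pou5f1 lies near the solid line.

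Across the transcriptome, 9768 genes reached 10 CPM in either library. Of these, 498 (5.10%) were at least 4-fold higher in the sorted cells and 209 (2.14%) were at least 4-fold lower. At 2-fold the numbers were 1292 (13.2%) and 981 (10.0%), and the median log2 ratio was -0.04. For scale, 2iJ+B-A on day 5 against day 2 gave 70 genes higher and 4 lower at 4-fold, day 11 against day 2 gave 149 and 27, and 2iJ against 2i gave 4 and 0. Of the genes at least 4-fold higher, 485 were also above both later 2iJ+B-A libraries and 445 above all 7 other libraries. Of those at least 4-fold lower, 206 were below all 3 unsorted 2iJ+B-A libraries. Pseudogenes and copies marked -ps passed 4-fold in either direction in 36 of 101 cases (35.6%), against 596 of 8927 protein-coding genes with established names (6.68%). Reads of such copies can come from their near-identical parents. Such copies were left out when genes were named by the size of their ratio. They remain in the counts over all genes, in the joint fit and in the chromosome medians.

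Transcription factors of the trophectoderm were unequally affected. Besides Cdx2, on whose reporter the cells were collected, 14 of 17 listed factors reached 10 CPM, of which 4 were at least 4-fold higher and none lower, with a median log2 ratio of 1.08. Tead4, which acts upstream of Cdx2 in the blastocyst, was at 87.6 CPM in the sorted cells and at 9.86, 15.9 and 16.2 CPM in the unsorted cells on days 2, 5 and 11 (8.88-fold over day 2). Klf5, a zinc-finger factor required for early trophectoderm, was at 154 CPM against 18.95, 22.3 and 15.4 CPM (8.11-fold). Gata3 was at 105 CPM against 15.7, 42.5 and 32.6 CPM (6.68-fold), and Sox15, a regulator of trophoblast giant cells, was at 54.2 CPM against 9.29, 7.15 and 6.38 CPM (5.83-fold). For each of these the sorted library was above every other library in the series.

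Gata2, the partner of Gata3 in trophoblast, was at 460 CPM in the sorted cells and at 172 CPM in the unsorted cells of day 2 (2.67-fold). Esx1, an X-linked placental homeobox gene, was at 140 CPM against 37.9 CPM on day 2, but 62.5 CPM on day 5 (3.70-fold over day 2). Tcfap2c, encoding AP-2gamma, was at 147 against 117 CPM (1.25-fold) and Hand1, a basic helix-loop-helix factor of giant cells, at 36.6 against 37.5 CPM, below the 99.5 CPM of day 5. Eomes, required for trophoblast stem cells, was at 2.68 CPM against 4.16 CPM, and Elf5, another trophoblast stem cell factor, at 0.909 against 0.530 CPM. Eomes and Elf5 were thus detected in both libraries at levels below the 10 CPM minimum. Msx2 was the only listed factor at least 2-fold lower, at 30.3 against 73.9 CPM.

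Epithelial and surface genes of the trophectoderm were compared next. Of 28 measured members 11 were at least 4-fold higher and none lower, and the sorted library was above all 3 unsorted 2iJ+B-A libraries in 23 (median log2 ratio 1.22). Krt8 and Krt18 encode the keratin pair of simple epithelia and are neighbours within 35.3 kb of chromosome 15. Krt8 was at 1731 CPM in the sorted cells and at 198, 594 and 301 CPM in the unsorted cells on days 2, 5 and 11 (8.74-fold over day 2), and Krt18 was at 1595 CPM against 160, 448 and 223 CPM (9.94-fold). In 2i and 2iJ both were below 20 CPM. Krt7 was 5.69-fold higher than on day 2, at 109 against 19.2 CPM, but the day 5 library had reached 98.3 CPM.

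Tight-junction claudins were higher as well, Cldn7 at 167 against 19.3 CPM (8.66-fold), Cldn4 at 815 against 136 CPM (6.01-fold) and Cldn3 at 41.3 against 8.03 CPM (5.14-fold). Lgals3 (galectin-3) was 14.4-fold higher, at 172 against 11.98 CPM, and Lcp1 (the actin bundler L-plastin) 17.9-fold higher, at 141 against 7.87 CPM. Fabp3, a fatty-acid binding protein, was the most abundant of the group at 2174 CPM, and its unsorted values of 393, 406 and 394 CPM lay close together (5.53-fold). Cd40, which the study stained as a trophoblast surface protein, was at 1.51 against 0.652 CPM.

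**Figure D2:**
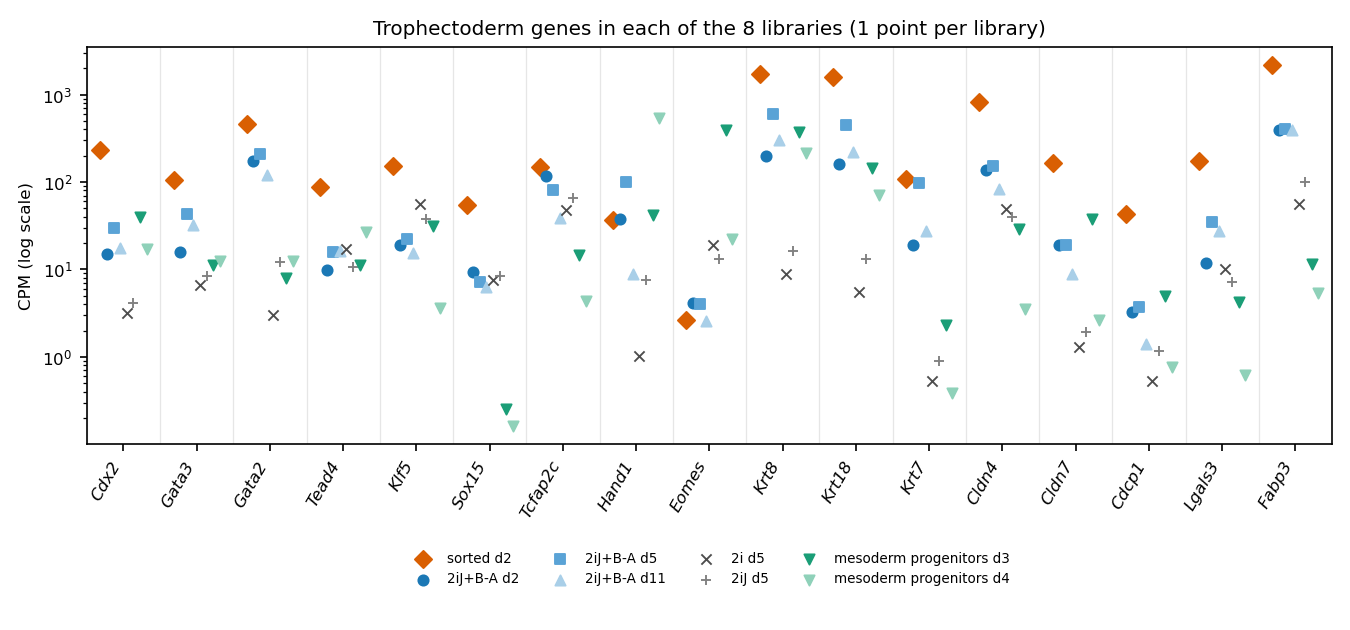
Each marker is the CPM (log scale) of a trophectoderm gene in 1 library, with the sorted library as orange diamonds and the 2iJ+B-A days in blue. The orange diamond is the highest point for Cdx2, Tead4, Klf5, Krt8, Krt18 and Fabp3, but not for Hand1 or Eomes.

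Other epithelial genes were examined as well. In the list of genes that mark the epithelial and mesenchymal switch 2 of 8 measured members were at least 4-fold higher, Ocln (occludin, 42.9 against 5.91 CPM) and Grhl2 (an activator of epithelial genes, 102 against 22.1 CPM). Epcam, which is in both lists, was at 409 against 128 CPM, and Cdh1 (E-cadherin) at 963 against 616 CPM (1.56-fold). Vim (vimentin) was at 54.9 CPM, between the 26.8 CPM of day 2 and the 67.7 CPM of day 11. Among collagens, laminins and integrins 4 of 20 measured members were at least 4-fold higher, among them the laminin chain Lama5 (1028 against 203 CPM) and the integrin subunits Itgb4 (27.9 against 2.69 CPM) and Itgb5 (183 against 34.4 CPM). Lama1 and Col4a1, basement membrane components that primitive endoderm secretes, were at 38.4 and 64.9 CPM, against 35.0 and 115 CPM on day 2. The day 11 library had 444 and 1334 CPM.

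Later placental genes gave no common direction. The trophoblast stem cell and placental list had 9 measured members. Of these Sox21 (50.0 against 7.91 CPM) and Wnt7b (65.4 against 13.3 CPM) were at least 4-fold higher. The X-linked homeobox genes Rhox6 (38.4 against 182 CPM) and Rhox9 (24.4 against 167 CPM) were at least 4-fold lower. On days 5 and 11 the unsorted cells had 13.9 and 22.7 CPM of Sox21 and 28.9 and 11.6 CPM of Wnt7b. They had 271 and 72.9 CPM of Rhox6 and 236 and 59.1 CPM of Rhox9. In 2i Rhox6 and Rhox9 were at 3.38 and 4.76 CPM. Gcm1, a regulator of syncytiotrophoblast, was at 30.5 against 17.5 CPM, and Fgfr2, the receptor through which trophoblast stem cells respond to FGF4, at 61.4 against 25.7 CPM. Prl3d1 (giant cells) and Tpbpa (spongiotrophoblast) had 0 counts in both libraries, which allows up to 0.151 CPM in the sorted and 0.122 CPM in the unsorted library.

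Core pluripotency factors did not move together. Of 26 measured members of the pluripotency list 4 were at least 4-fold lower and none was higher, with a median log2 ratio of -0.51. Pou5f1 was at 957 CPM in the sorted cells and at 865, 896 and 1075 CPM in the unsorted 2iJ+B-A cells, within their range. Nanog was at 401 CPM against 581, 506 and 538 CPM (1.45-fold lower than on day 2), and Esrrb, an orphan nuclear receptor of naive cells, at 101 CPM against 240, 285 and 296 CPM (2.37-fold lower). The 4 genes past the threshold were Sox2, Tcl1 (2.22 against 20.01 CPM), the Nodal coreceptor Tdgf1 (20.1 against 180 CPM) and Fgf4 (38.6 against 182 CPM), whose enhancer is bound by OCT4 and SOX2. Nr0b1 (5.30 against 16.3 CPM) and Prdm14 (8.83 against 26.7 CPM) were also lower. In contrast, Tcfcp2l1 was at 672 CPM against 262, 334 and 251 CPM (2.57-fold higher than on day 2), close to its 687 CPM in 2i. Klf4 was at 209 CPM against 97.5, 148 and 134 CPM (2.14-fold higher than on day 2).

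Other early lineages were examined next. In the formative and primed epiblast list 2 of 8 measured members were at least 4-fold lower, among them the neural-biased factor Zic2 (7.27 against 41.2 CPM), Otx2 was at 38.7 against 41.6 CPM, and the de novo DNA methyltransferase Dnmt3b was 6.60-fold higher, at 550 CPM against 83.3, 137 and 220 CPM in the unsorted cells. None of the 23 primitive streak and nascent mesoderm genes reached 10 CPM in either library. T was at 0.959 and 0.367 CPM, whereas it was at 547 CPM in the day 3 mesoderm progenitors. Of 34 Hox genes the highest in the sorted library was Hoxb9 at 15.7 CPM. Cdx1, a paralogue of Cdx2, was at 12.4 against 2.65 CPM, but also at 12.4 CPM in 2i. Among primitive endoderm genes, Gata6 (32.8 against 3.67 CPM) and the endocytic adaptor Dab2 (212 against 18.2 CPM) were at least 4-fold higher, whereas Gata4 was at 0.757 against 5.18 CPM and Sox17 at 1.16 against 1.06 CPM. Defining markers of primitive endoderm were therefore split.

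Signalling genes were then compared, since all cells had received the same inhibitors. Of 10 measured Nodal/Activin genes 2 were at least 4-fold lower (Lefty2 and Tdgf1) and none higher (median log2 ratio -1.06). Lefty2, a feedback inhibitor of Nodal, had 3 counts in the sorted library against 13.1 CPM (log2 ratio -6.43 [-8.72, -4.87]). Its neighbour Lefty1, below the 10 CPM minimum in both libraries, had 1 count against 8.36 CPM (-7.37 [-12.68, -4.88]). In 2iJ+B-A on day 11, however, Lefty1 and Lefty2 were at 0.195 and 0.0651 CPM, so that the sorted library was not separate from all unsorted cells. Nodal itself was at 20.8 against 45.4 CPM, and Tgfbr1, the type I receptor for TGF-beta, at 27.3 against 79.2 CPM. Acvr1b, a type I receptor for Activin and Nodal, had the highest log2 ratio of the measured list members (0.85), at 69.1 against 38.3 CPM.

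BMP-SMAD targets showed no 4-fold difference among 10 measured members. Since only 5.10% of all measured genes were at least 4-fold higher and 2.14% lower, this count does not set the list apart. Id1 was at 52.3 CPM against 103 CPM, Id2 at 207 against 160 CPM and Id3 at 49.5 against 72.4 CPM, and all 3 remained above their levels in 2i (5.12, 6.39 and 11.97 CPM). Smad6, a feedback inhibitor of the pathway, was at 4.64 against 12.8 CPM.

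Feedback genes of ERK signalling included 3 of 7 measured members at least 4-fold higher and none lower. Over all measured genes 5.10% were at least 4-fold higher and 2.14% lower. The phosphatase Dusp4 was at 52.1 CPM against 3.06, 7.88 and 7.52 CPM in the unsorted cells (17.0-fold over day 2). Phlda1 was at 19.3 CPM against 3.30, 7.82 and 5.47 CPM on days 2, 5 and 11. The receptor-signalling inhibitor Spry2 was at 42.7 CPM against 9.09, 20.5 and 19.3 CPM. Dusp6, a phosphatase specific for ERK, was at 6.06 against 4.08 CPM, and Egr1 at 1.67 against 1.18 CPM. The day 3 mesoderm progenitors, which are not listed as having received PD0325901, had 159 CPM of Dusp6, 176 CPM of Dusp4 and 136 CPM of Spry2.

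JAK-STAT genes differed in both directions, with 2 of 12 measured members at least 4-fold higher and 2 at least 4-fold lower. Socs3, the feedback inhibitor induced by STAT3, was at 40.7 CPM in the sorted cells and at 3.06, 3.82 and 3.42 CPM in the unsorted cells (13.3-fold over day 2), and Cish, another cytokine-induced inhibitor, was at 23.2 against 1.88 CPM (12.4-fold). The LIF receptor subunits were lower, Lifr at 16.0 against 64.8 CPM (4.06-fold) and Il6st at 23.1 against 99.9 CPM (4.32-fold). Stat3 was at 14.3 against 11.7 CPM, and Socs2, a feedback inhibitor like Socs3, was at 8.98 against 32.0 CPM.

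Hippo and Wnt targets had median log2 ratios of 0.78 and -0.02. Of 11 measured Hippo-list genes only Lats2, the kinase that restrains YAP, passed 4-fold (48.6 against 7.66 CPM). Cyr61 was at 114 against 34.2 CPM and Ctgf at 100 against 42.9 CPM, below its 108 CPM of day 11. Of 9 measured Wnt targets Cdx1 alone passed, and its sorted level was close to that of 2i (12.4 CPM each). Since 5.10% of all measured genes were at least 4-fold higher, neither count sets its list apart. Axin2 was at 71.3 against 33.9 CPM, Lef1 at 9.74 against 7.54 CPM and the Wnt antagonist Sfrp1 at 23.98 against 77.1 CPM.

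**Figure D3:**
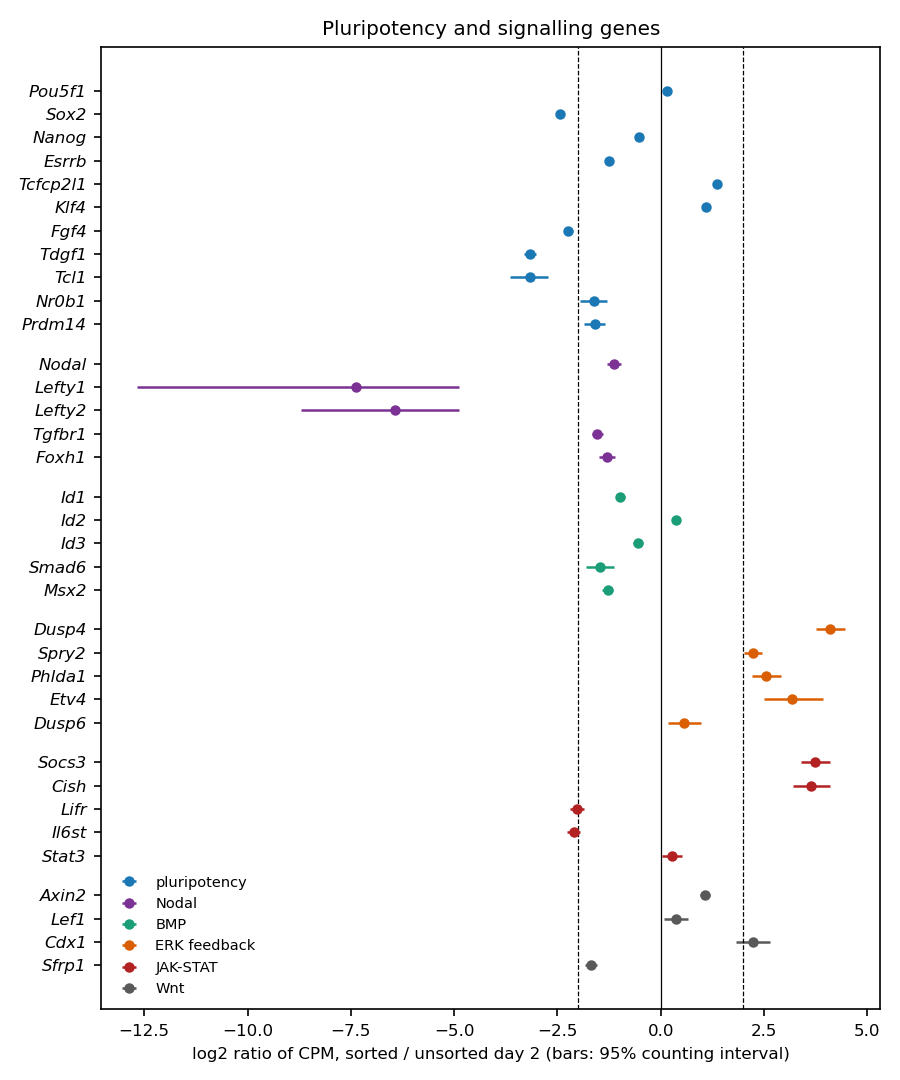
Points give the log2 ratio of CPM, sorted over unsorted on day 2, for pluripotency and signalling genes, and bars give the 95% counting interval. Dashed lines mark 4-fold. Socs3, Cish and Dusp4 lie on the right, Lefty1 and Lefty2 lie farthest to the left with wide bars, and Pou5f1 lies near 0.

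Among protein-coding genes that lay at least 2-fold outside all 3 unsorted 2iJ+B-A libraries, the largest ratios were not those of trophectoderm regulators. Adh1, an alcohol dehydrogenase that can oxidize retinol, was at 389 CPM in the sorted cells and at 1.63, 2.26 and 3.22 CPM in the unsorted cells (239-fold over day 2). Gpnmb, a transmembrane glycoprotein, was at 79.9 against 0.448 CPM, and Dmkn (dermokine, secreted by epithelia) at 194 against 1.83 CPM, although the latter reached 22.3 CPM on day 5. Sema5a, a semaphorin, was at 83.3 against 1.06 CPM and the oocyte and embryo gene Pramel5 at 18.98 against 0.326 CPM. Prss22 and Tmem171 had 279 and 316 counts against 1 and 2, giving log2 ratios of 8.43 [5.94, 13.74] and 7.61 [5.75, 10.66]. Postn, Lrrc4b and Tekt5 were between 11.4 and 13.1 CPM against at most 0.163 CPM. The symbols Tpm3-rs7 and Rbpsuh-rs3 name copies related in sequence to other genes, and their values (206 against 2.36 CPM and 33.8 against 0.408 CPM) are uncertain.

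Of these genes 3 lie next to each other on chromosome 11 within 172 kb (46421274 to 46593080, NCBIM37), which was noticed after their values had been seen. Dppa1 was at 174 against 0.978 CPM, Timd2, which encodes a ferritin receptor of the TIM family, at 107 against 0.815 CPM, and Havcr1, of the same family, at 44.0 against 0.204 CPM. Between them, the transcript Gm4926 had 235 counts against 0 in the unsorted library. The pseudogene Gm12174, which lies between Timd2 and Havcr1, was at 3.13 against 4.16 CPM.

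The genes with the largest falls in ratio were led by Stra8, which is induced by retinoic acid in germ cells before meiosis. It was at 0.909 CPM in the sorted cells and at 170, 104 and 4.95 CPM in the unsorted cells on days 2, 5 and 11, and at 22.6 CPM in 2i. Gli1, a transcription factor and target of the Hedgehog pathway, was at 0.757 CPM against 18.3, 8.08 and 3.94 CPM. Upp1 (uridine phosphorylase) was at 13.6 against 259 CPM and the endocytic receptor Ly75 at 7.22 against 98.4 CPM. Plxdc1, A2m, Gap43, Lrriq4, Fam25c, B4galnt4, AI593442, Aurkc, Tro and Clgn were between 0.202 and 2.52 CPM in the sorted cells and between 11.2 and 28.7 CPM in the unsorted cells of day 2.

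Markers of other cells and of the line were examined because the sorted cells came from another line. Of 8 measured fibroblast markers 5 were at least 4-fold higher. Col1a1 was at 42.1 CPM against 2.08, 3.15 and 0.618 CPM, Col1a2 at 24.8 against 1.88 CPM, Col3a1 at 12.7 against 0.611 CPM, Col6a1 at 18.4 against 1.47 CPM and Postn at 11.4 against 0.122 CPM. Thy1 was at 9.19 against 3.83 CPM, whereas the contractile genes Acta2 (19.8 against 32.3 CPM) and Tagln (11.5 against 27.9 CPM) were not higher. Over all 14 list genes the summed level was 177 CPM in the sorted cells and ranged from 41.7 to 378 CPM in the 5 unsorted mESC libraries. Xist, the RNA that coats the inactive X chromosome, was at 294 CPM in the sorted cells and at 2.69, 4.86 and 14.5 CPM in the unsorted cells (109-fold over day 2), while the Y-linked genes Ddx3y (129 against 86.2 CPM) and Eif2s3y (136 against 134 CPM) were present in both. Whether fibroblast RNA or the line contributed to the other differences was not tested. The leukocyte marker Ptprc had 0 counts in both libraries.

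**Figure D4:**
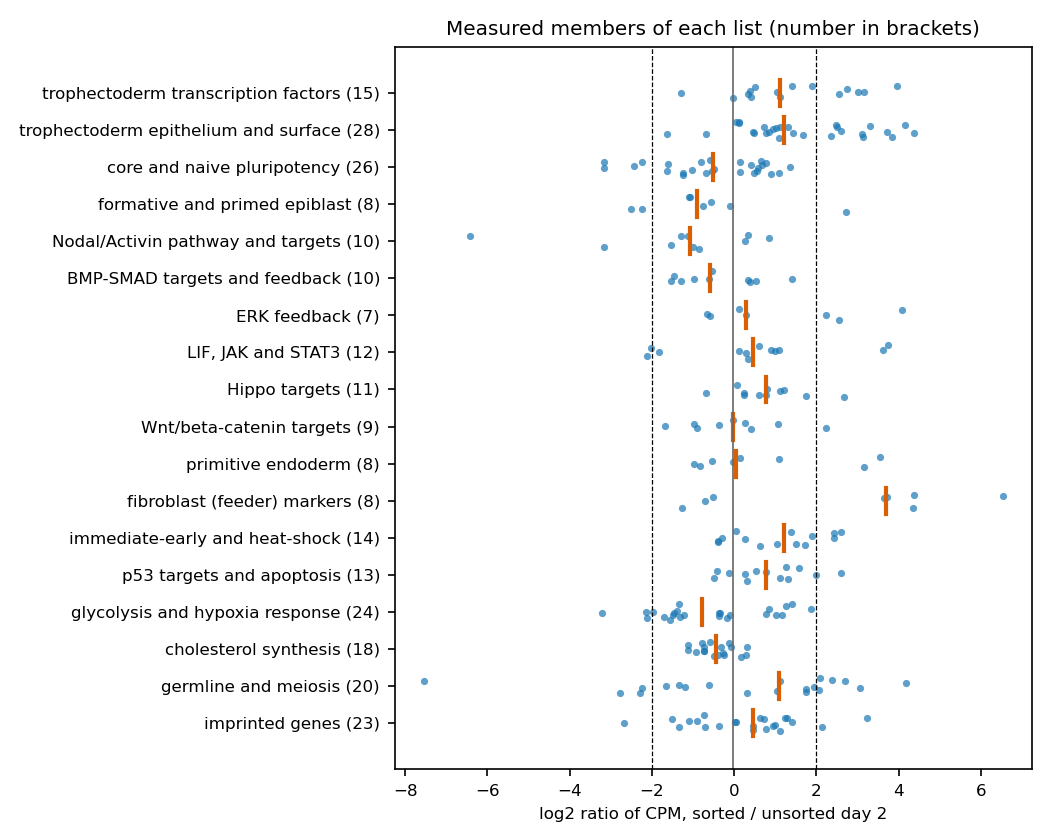
Each point is a measured member of a gene list, placed by its log2 ratio of CPM, sorted over unsorted on day 2. Orange bars mark list medians, the solid line the median of all measured genes (-0.04) and dashed lines 4-fold. The trophectoderm lists have medians of 1.11 (Cdx2 included) and 1.22, and the fibroblast list has the highest at 3.69.

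Genes responsive to handling and stress were higher in part. In the immediate-early and heat-shock list 3 of 14 measured members were at least 4-fold higher and 8 at least 2-fold higher (median log2 ratio 1.21). Over all measured genes these shares were 5.10% and 13.2%. Fos was at 22.6 against 3.75 CPM, Zfp36 at 24.1 against 4.48 CPM and Ddit3, a factor of the integrated stress response, at 26.6 against 4.97 CPM, whereas Ier2 and Dusp1 were within 2-fold. Of 13 measured p53 targets 6 were at least 2-fold higher, including Mdm2 (319 against 108 CPM), Cdkn1a (203 against 85.4 CPM) and the BH3-only gene Pmaip1 (36.0 against 5.99 CPM, past 4-fold).

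Glycolysis and hypoxia response genes differed in both directions. Of 24 measured members 12 were at least 2-fold lower and 5 at least 2-fold higher (median log2 ratio -0.79). The lactate transporter Slc16a3 was at 7.87 against 72.6 CPM, Pfkp (phosphofructokinase, platelet type) at 52.8 against 231 CPM, Pgk1 at 213 against 836 CPM and Gapdh at 935 against 2603 CPM. The day 5 and 11 unsorted libraries had 356 and 328 CPM of Pgk1, so that part of this difference was also present between unsorted days. For Gapdh they had 2306 and 2458 CPM. Hk2 (hexokinase 2) was at 404 against 169 CPM. The summed level of the list was 10704 CPM in the sorted cells, 15140 CPM in the unsorted cells of day 2, and 10650 and 11292 CPM on days 5 and 11. In the joint edgeR fit described below, against the mean of the 3 unsorted days, the list had a median log2 difference of -0.04, with 3 genes called higher (Hk2, Slc2a3, Ddit4) and 2 lower (Eno1, Gapdh). Of 18 measured cholesterol synthesis genes none passed 4-fold, where 5.10% of all measured genes were higher and 2.14% lower, so that this count does not set the list apart.

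Germline, imprinted and early-embryo genes were mixed. Of 20 measured germline genes 6 were at least 4-fold higher, among them Tex101 (25.0 against 1.39 CPM) and the piRNA pathway genes Piwil2 (54.4 against 6.56 CPM) and Tdrd1 (10.8 against 1.67 CPM), and 4 were at least 4-fold lower. Among 23 measured imprinted genes the maternally expressed Meg3 was at 278 against 63.0 CPM, and Phlda2, which restrains placental growth, was at 22.0 against 141 CPM. H19 was at 5018 against 2043 CPM, whereas the adjacent Igf2 was at 718 against 710 CPM. Pramel7 was at 137 against 18.95 CPM and Trim43b at 29.8 against 1.957 CPM, whereas Pramel6 was at 4.09 against 11.7 CPM. Members of these families share sequence, and their separate values are uncertain.

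Ratios also differed by chromosome, a pattern noticed after the values had been seen. The 548 measured genes of chromosome 8 had a median log2 ratio of -0.44, and 74.6% of them were below 0. Against each of the 5 unsorted mESC libraries this median lay between -0.56 and -0.41, whereas pairs of unsorted mESC libraries gave 0.01 to 0.14. On the X chromosome the median was -0.31 and ranged from -0.31 to -0.20. The other 18 chromosomes lay between -0.20 and 0.14 against day 2, and between -0.26 and 0.21 over the 5 libraries, a range that includes part of that of X. Chromosomes 1 and 19 were lower than X against 2i and against 2iJ+B-A on day 5.

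**Figure D5:**
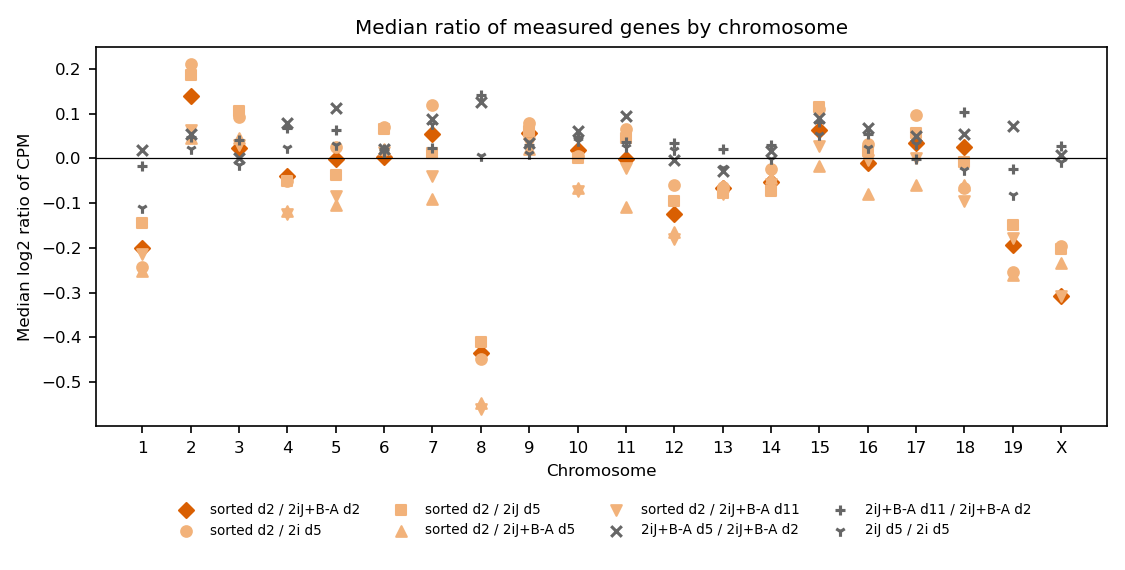
Points give the median log2 ratio of CPM over measured genes of each chromosome (x axis), in orange for the sorted library against 5 unsorted mESC libraries and in grey for 3 pairs of unsorted libraries. Orange points for chromosome 8 lie between -0.56 and -0.41, apart from the grey points.

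To set the sorted library against the spread among unsorted cells, all 8 libraries were fitted together with edgeR. In this fit the 3 days of 2iJ+B-A and the 2 mesoderm libraries supply the spread, and the lone sorted library is assumed to vary in the same way. The fit uses the same sorted and unsorted day 2 libraries as the ratios above. Overlap between its calls and those ratios is therefore partly built in and is no separate support. Of 16961 genes 567 (3.34%) were higher and 352 (2.08%) lower than the mean of 2iJ+B-A. Of the genes at least 4-fold apart on day 2 it also called 258 of 490 tested that were higher and 96 of 209 that were lower. Tead4 was higher by 2.70 ± 0.48 (log2, SE; edgeR adjusted p = 0.0358) and Fabp3 by 2.50 ± 0.34 (edgeR adjusted p = 0.0195). Sox2 was at -2.29 ± 0.30 (edgeR adjusted p = 0.0194) and Esrrb at -1.38 ± 0.29 (edgeR adjusted p = 0.0478). In the trophectoderm lists 2 of the 17 factors other than Cdx2 (Tead4, Sox15) and 4 of 29 epithelial genes (Krt18, Dsg2, Fabp3, Lcp1) passed in the direction higher and none in the direction lower, and in the pluripotency list 4 of 27 passed in the direction lower (Sox2, Esrrb, Tcl1, Lin28a). Gata3 (edgeR adjusted p = 0.0690), Krt8 (edgeR adjusted p = 0.0595) and Cdcp1 (edgeR adjusted p = 0.0559) missed the threshold. Socs3, Cish, Dusp4, Fos, Jun, Col1a1, Col3a1 and Xist passed.

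These calls depended on the unsorted days. Tead4, Sox15, Krt18, Fabp3, Lcp1, Esrrb, Tcl1 and Lin28a each lost the call when any 1 of days 2, 5 and 11 was left out. They also lost it when a slope over days was fitted. Of 46 named genes called, Cdx2 included, 10 were still called without the day 2 library, 4 without day 5 and 12 without day 11, and 3 (Adh1, Xist and Tpm3-rs7) when a slope over days was fitted and the comparison was made at day 2. Over all genes the calls then numbered 91, 37, 117 and 27. Sox2 lost its call when any 1 of these days was left out, with edgeR adjusted p between 0.0655 and 0.0847, while its log2 difference stayed at -2.36 to -2.22. In these settings none of the 46 changed sign, and 1 was no longer tested without day 11. Over all genes, many of those called in the slope fit were Gm-numbered genes or sequence copies such as Rps13-ps1, Rps2-ps13, Rpl15-ps2 and Vcp-rs. The values of such copies are uncertain. At day 2 the slope fit also called Dnmt3b, higher by 2.77 ± 0.22 (edgeR adjusted p = 0.0409). Leaving out the day 3 or day 4 mesoderm library gave 1987 and 2052 calls.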

How the data were processed

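The authors extracted RNA from frozen pellets, prepared strand-specific poly-A libraries, sequenced read pairs (bcl2fastq 2.17), trimmed them with cutadapt and aligned them to NCBIM37 with STAR 2.4.2a, as the labels and methods state. The annotation release was not given in the sources used here. The deposited values are raw counts per gene from STAR, for 37620 genes and for each strand setting. No correction between experiments is contained in them.

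The reverse-strand counts were used, with symbols from GENCODE for NCBIM37 (37205 genes named). Counts were divided by the gene total of each library to give CPM. Ratios between the sorted and the unsorted day 2 library carry exact (Clopper-Pearson) intervals that cover counting error only, with no test, and 0 counts were set at a floor of 3 counts. The 8 libraries were also fitted with edgeR 4.0.16 (quasi-likelihood test, TMM scaling, genes reaching 10 counts in 2 or more libraries, Benjamini-Hochberg adjustment, threshold 0.05), with SE taken as the log2 fold change over the square root of F. DESeq2 was an alternative. Both steps were tested on simulated data, the ratios with counting error alone and the joint fit with a smaller spread between libraries than was estimated here. These tests therefore do not show how the steps perform at the spread of these data. Promoters came from RefSeq (GRCm38.p6).

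Named genes were Cdx2, Sox2, Cdcp1, Pou5f1, Nanog and Esrrb; up to 15 genes with the largest ratio in each direction among protein-coding genes with established names, past 4-fold and at least 2-fold outside the unsorted 2iJ+B-A range; and, in each of 32 lists, the defining members and up to 8 others past 2-fold. Other genes were named after their values were seen. The members and lists were chosen with earlier results of these data known. Groups came from the labels. Nothing says that libraries of a group came from separate cultures, so p-values measure only the spread between these samples. Some genes under these rules are not reported here.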

Additional observations from a re-analysis of the deposited data

Results flagged for a closer look

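Data outside the gene counts stood apart in the sorted library. Of its read pairs 29.7% were not aligned, against 2.17% to 3.85% in the other 7 libraries. Of the pairs with a unique position 27.8% hit no annotated exon, against 7.83% to 13.2%. Their part in the differences between the sorted and unsorted cells was not tested.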

How the results depend on the processing

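With TMM or size-factor scaling, unstranded counts, or protein-coding genes alone, between 476 and 510 genes were at least 4-fold higher and between 201 and 218 lower. A minimum of 1 CPM gave 1211 and 742, no minimum gave 1906 and 1105, a 2-fold threshold 1292 and 981, and an 8-fold threshold 218 and 72. With day 5 as reference the counts were 377 and 293, and with day 11 they were 488 and 363. The share of calls that were higher, 70.4% in the main setting, was then 56.3% and 57.3%.

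In the joint fit DESeq2 called 1199 genes higher and 1498 lower, edgeR without a filter called 794 and 596, without the mesoderm progenitors 1126 and 907, and with a slope on log2(day) at day 2 it called 14 and 13. Leaving out 1 library at a time gave 28 to 1136 genes higher and 9 to 916 lower. Fewer libraries or another term leave another spread, and the cause was not tested further.

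Log2 ratios of named genes past 2-fold on day 2 turned in 12 cases. With day 5 as reference these were Vim (-0.10), Atf3 (-0.14), Hsph1 (-0.16), Aldoc (0.29) and Rdh10 (-0.051). With day 11 they were Sparc (-1.12), Lefty2 (1.22), Ctgf (-0.11), Vim (-0.30), Hsph1 (-0.41), Aldoc (0.72) and Dnmt3l (-0.059). The Lefty2 value sets 3 counts against a level at or under 3 counts. Scaling turned none of them, but with size factors Lifr was no longer 4-fold lower and Perp became 4-fold higher.

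With 1 sorted library there is no estimate of its own spread. No paired analysis was possible because the 1 sorted library came from another line than the others.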

Other observations

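Primordial germ cell genes lay mostly below the unsorted level. Of 9 measured members 6 were at least 2-fold lower and 2 at least 4-fold lower, namely the interferon-induced membrane protein gene Ifitm1 (37.0 against 249 CPM) and the receptor Kit (19.7 against 110 CPM), whereas Alpl, the alkaline phosphatase of pluripotent and germ cells, was at 603 against 291 CPM. Retinoic acid genes were split, with Dhrs3, a retinal reductase, at 14.99 against 2.20 CPM and the receptor Rara at 5.70 against 16.7 CPM.

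Cell-cycle regulators differed in direction. The CDK inhibitor Cdkn2c was at 13.9 against 2.08 CPM, whereas Cdkn1b was at 37.7 against 130 CPM and Mycn at 44.4 against 103 CPM. Runx1, listed with blood markers and also expressed in epithelia, was at 32.2 against 0.856 CPM, and Sp110, listed with genes of the two-cell-like state, at 39.7 against 0.978 CPM, while Zscan4c, which defines that list, was at 17.6 against 5.75 CPM and at 91.6 CPM in 2i. Among mitochondrially encoded genes mt-Nd6, the member transcribed from the opposite strand, was at 78.6 against 380 CPM, whereas the other 6 measured members were within 2-fold.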
